A study of Mus musculus with 24 samples.

Results

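The 9 phosphate and pyrophosphate genes Slc20a1, Slc20a2, Xpr1, Ank, Enpp1, Alpl, Nt5e, Jam2 and Naa60 were followed by symbol among the 32288 genes counted in single brain nuclei of a mouse model of vascular calcification. All 9 symbols matched 1 row each. Nuclei came from 6 mutant mice, homozygous for the ret allele of Pdgfb (Pdgfb ret/ret), and from 6 controls that carried the same allele on 1 chromosome (Pdgfb ret/wt), all of strain B6.Pdgfbtm3Cbet. The allele removes the motif that holds the PDGF-B growth factor near the cells that secrete it, and the mutants lose pericytes and form calcified vessels. Because the controls are heterozygous, they are no wild type. The mutants and 5 controls were female and control 6 was male, and ages ran from 4 months and 7 days to 5 months and 18 days. Each mouse gave 1 library of the deep brain (pallidum, thalamus and hypothalamus, midbrain and pons), the region prone to calcification, and 1 of the cortex with hippocampus, where vessels do not calcify, which made 24 libraries from perfused and frozen tissue.

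Phosphate enters cells through sodium-coupled importers and leaves them through the exporter XPR1, while extracellular pyrophosphate, made from ATP, blocks the growth of calcium phosphate crystals until a phosphatase splits it. In people, loss of the importer SLC20A2, of XPR1, of the junction protein JAM2 or of the acetyltransferase NAA60 causes primary familial brain calcification, a disorder that changes in PDGFB and its receptor also cause. Loss of ENPP1, of ANKH (the human form of Ank) or of NT5E leads to mineral deposits in joints or arteries, and loss of ALPL to soft bones.

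Alpl, which the comparison of mutants with controls turns on, lies on the minus strand of chromosome 4 (137741733 to 137796384, mm10, GENCODE M21). RefSeq (GRCm38.p6) annotates 2 transcript starts for it, and the sequences from 250 bases before to 50 bases after each start are shown because they differ in composition. Capitals mark GC boxes (GGGCGG, searched on both strands, neighbouring matches may overlap).
Alpl upstream start, chr4:137796335-137796634, minus strand: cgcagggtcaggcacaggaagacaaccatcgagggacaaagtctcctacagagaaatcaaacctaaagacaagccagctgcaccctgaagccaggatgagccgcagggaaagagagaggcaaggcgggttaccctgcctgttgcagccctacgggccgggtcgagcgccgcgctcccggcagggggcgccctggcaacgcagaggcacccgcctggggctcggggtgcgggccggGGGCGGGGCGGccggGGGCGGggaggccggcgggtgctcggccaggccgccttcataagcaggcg
Alpl downstream start, chr4:137766426-137766725, minus strand: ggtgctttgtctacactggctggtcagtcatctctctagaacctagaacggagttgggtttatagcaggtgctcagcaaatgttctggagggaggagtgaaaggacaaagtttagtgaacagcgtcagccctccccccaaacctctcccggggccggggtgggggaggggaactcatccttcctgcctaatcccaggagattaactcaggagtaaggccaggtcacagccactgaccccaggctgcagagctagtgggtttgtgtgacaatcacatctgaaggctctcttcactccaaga
The upstream window held 3 GC boxes and 26 CpG dinucleotides at 70.0% G and C. The downstream window held no GC box and 4 CpG at 54.3%. The hexamer TATAAA, searched on both strands, was found in it but not in the upstream window. The match lay on the opposite strand and far before the start, so it is not called a TATA box. For comparison, 35.7% of the 32851 promoter windows of this length in the RefSeq table held a GC box, and 13.6% the hexamer TATAAA. The deposited counts are per gene, so the starts cannot be told apart in the values below.

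The values are unique molecular identifiers (UMIs) per gene and nucleus, counted by the authors with introns included, and levels are given in the usual unit CPM, the UMIs of a gene scaled to all UMIs of the same nuclei, those of a class summed in a library. Of 127519 deep brain barcodes 124958 were kept and of 109705 cortical barcodes 79967, by limits on detected genes and mitochondrial share. Deep brain libraries held 64736053 to 96459036 UMIs and cortical libraries 23625232 to 95605387, and in 7 of the 12 cortical libraries the median kept nucleus had under 1500 UMIs. Clusters were named from marker genes, as astrocyte-like for example, and are called by the cell class alone in what follows. Clusters without a clear set of markers stayed unnamed, 13.2% of the deep brain nuclei and 55.2% of the cortical ones. Libraries shared at most 220 barcodes, 1.99% of the smaller library. Over the 12 deep brain libraries 180471 UMIs of Ank, 155021 of Xpr1, 92700 of Slc20a2, 55750 of Slc20a1, 39203 of Naa60, 25994 of Jam2, 10048 of Enpp1, 8819 of Nt5e and 1826 of Alpl were counted, so the precision is lowest for Alpl.

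Levels differed between cell classes by gene, and each order below is a description of clusters, without a test. Among the importers, Slc20a1, which encodes PiT-1, was highest in the deep brain in T cells at 127 ± 78 CPM (SD, n = 6 libraries with at least 10 such nuclei, all of mutants) and astrocytes at 125 ± 33 CPM (n = 12, of both genotypes), whose ranges overlapped. The T cell mean rests on 19 UMIs of Slc20a1 in 95 nuclei. Slc17a7 neurons, the excitatory cells that carry the vesicular glutamate transporter of the cortex, followed ependymal cells at 73.4 ± 12.2 CPM, and oligodendrocytes had 17.8 ± 2.5 CPM. In the cortex, astrocytes led with 168 ± 47 CPM and lay above the next class, Slc17a7 neurons (84.7 ± 11.3 CPM), in every library.

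Slc20a2, which encodes PiT-2, was highest in oligodendrocytes, the myelinating cells, with 308 ± 19 CPM in the deep brain and 291 ± 24 CPM in the cortex. In the cortex their lowest library, at 259 CPM, stood above the highest astrocyte library at 181 CPM, whereas in the deep brain the few nuclei of the choroid plexus (201 ± 72 CPM, n = 6) reached into their range. Fibroblasts (172 ± 34 CPM) and astrocytes (158 ± 25 CPM) came next in the deep brain and overlapped each other. The exporter Xpr1 followed another order. Astrocytes had the highest mean in the deep brain, 375 ± 35 CPM, overlapping the committed oligodendrocyte precursors (324 ± 78 CPM, range 233 to 460). Oligodendrocytes were lowest there, at 76.5 ± 5.6 CPM, so that the class with the most Slc20a2 had the least Xpr1. In the cortex astrocytes again had the highest mean (291 ± 39 CPM), overlapping the oligodendrocyte precursors (OPC, 243 ± 38 CPM), and oligodendrocytes the lowest (85.0 ± 9.3 CPM).

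Of the genes that raise extracellular pyrophosphate, Ank, whose protein is needed for the release of ATP and pyrophosphate from cells, had its highest mean over both genotypes in oligodendrocytes (408 ± 23 CPM deep brain, 382 ± 36 CPM cortex). Deep brain macrophages had 442 ± 198 CPM of Ank in 6 mutant and 215 ± 156 CPM in 4 control libraries, with a range of 31.9 to 766 CPM, and the control mean lay below that of control Slc17a7 neurons at 243 ± 12 CPM. Over both genotypes Slc17a7 neurons had 226 ± 26 CPM there and 254 ± 21 CPM in the cortex. No test of genotype was run in macrophages. Enpp1, the ectoenzyme that makes pyrophosphate from ATP, was highest in deep brain fibroblasts with 279 ± 67 CPM (range 170 to 412), followed by T cells (65.4 ± 77.1 CPM, mutant libraries alone) and oligodendrocytes (54.1 ± 8.2 CPM). The T cell mean rests on 9 UMIs of Enpp1 in 95 nuclei. In astrocytes it was at 2.94 ± 1.85 CPM and in Slc17a7 neurons at 1.37 ± 0.34 CPM. Cortical fibroblasts were too few for a level.

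Of the ectoenzymes that break down pyrophosphate and AMP, Alpl, the tissue-nonspecific alkaline phosphatase, was highest in deep brain fibroblasts at 92.8 ± 33.8 CPM and endothelial cells at 57.2 ± 26.0 CPM, which overlapped. Astrocytes came next with 19.0 ± 9.5 CPM over both genotypes, and OPC had 7.72 ± 1.95 CPM. The neuron types lay between 0.172 and 0.344 CPM, and no Alpl UMI was counted in the committed oligodendrocyte precursors, macrophages or T cells of the deep brain, which allows up to 1.37, 4.43 and 14.6 CPM (3 counts of the UMIs of each class, counting error only). In cortical microglia it was not counted either, a limit of 0.708 CPM. Nt5e, which encodes CD73 and turns AMP into adenosine, had 47.2 ± 20.7 CPM in fibroblasts, 35.5 ± 5.8 CPM in OPC and 24.6 ± 7.0 CPM in oligodendrocytes. T cells had 148 ± 140 CPM of Nt5e, a mean over 6 small libraries, all of mutants, that ranged from 33.0 to 403 CPM.

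Jam2, a protein of tight junctions, was highest in deep brain endothelial cells at 330 ± 72 CPM, with the lowest library at 206 CPM, just under the highest astrocyte library (179 ± 19 CPM, up to 206.2). OPC had 164 ± 12 CPM, microglia 102 ± 15 CPM and Slc17a7 neurons 7.02 ± 2.77 CPM. Naa60, which acetylates the ends of membrane proteins at the Golgi, ranged from 25.6 ± 13.1 CPM in committed oligodendrocyte precursors to 96.9 ± 15.2 CPM in microglia.

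**Figure D1:**
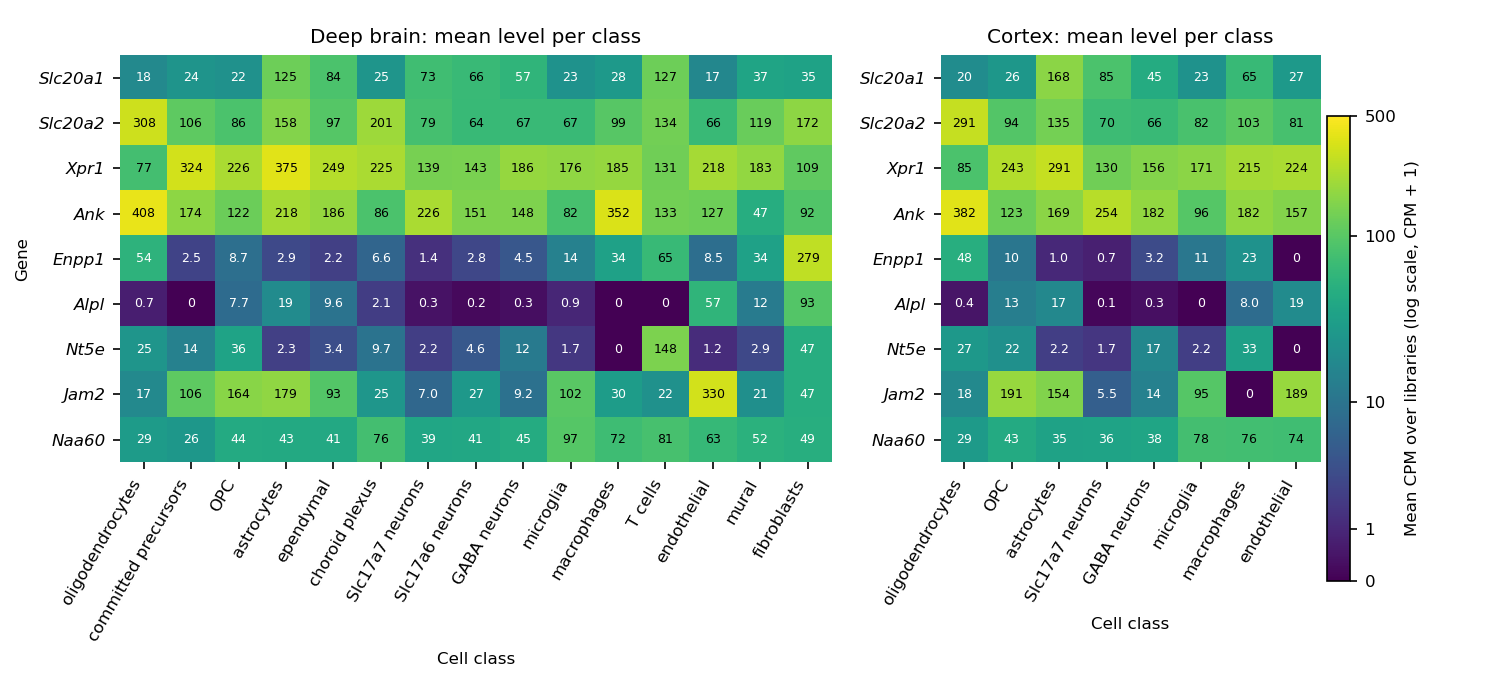
Mean CPM over libraries of the 9 genes (rows) in each cell class (columns) of the deep brain and the cortex, for libraries with at least 10 nuclei of the class, on a logarithmic colour scale after adding 1 CPM and with the mean printed in each cell. Over both genotypes oligodendrocytes carry the highest mean Slc20a2 (308 and 291 CPM) and Ank (408 and 382 CPM) in both regions, though mutant macrophages had 442 CPM of Ank, and fibroblasts the highest Enpp1 (279 CPM) and Alpl (92.8 CPM) in the deep brain.

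By a Pearson correlation of log2(mean CPM + 5) across 27 class means of both regions, among 15110 genes, the gene with the profile nearest to Slc20a2 was Olfml1 (r = 0.92), to Alpl Nfat5 (0.88), to Naa60 Birc3 (0.88) and to Enpp1 Serpinf1 (0.83). The nearest to Slc20a1 was Sorcs2 (0.80), to Jam2 Mfsd2a (0.77), to Nt5e Rnf43 (0.76), to Xpr1 C230035I16Rik (0.75) and to Ank 4930419G24Rik (0.68). The class means share libraries and depth, so these values describe likeness only.

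The comparison of mutants with controls asks whether these genes change where vessels calcify. In the deep brain Alpl was lower in mutant astrocytes, the 1 member test in a named class that passed. Its level was 10.5, 10.5, 7.77, 7.73, 10.3 and 19.7 CPM in mutants 1 to 6 and 21.3, 32.0, 26.6, 20.4, 31.8 and 29.7 CPM in controls 1 to 6. The highest mutant, mutant 6, lay just below the lowest control, and the genotypes did not overlap. The mean of the controls was 27.0 ± 5.1 CPM and that of the mutants 11.1 ± 4.4 CPM, a fall to 0.391 of the control level (log2 −1.35, SE 0.20, adjusted p = 0.001, edgeR quasi-likelihood test with Benjamini-Hochberg adjustment over all genes tested, n = 6 and 6). These values rest on 27 to 38 Alpl UMIs per mutant library and 55 to 116 per control library, over 659 to 1189 and 591 to 987 astrocytes. In this fit 5.01% of 12780 genes passed the threshold of 0.05, 400 higher and 240 lower in mutants. In sums over nuclei, fewer cells of a type and less RNA per cell cannot be told apart, and within a class a shift among its subtypes also enters.

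The difference held in both large astrocyte clusters, a division added after the result was known. In the cluster of 7735 nuclei led by Slc6a11, a GABA transporter, Alpl ranged from 7.80 to 21.3 CPM in mutants and from 24.3 to 38.7 CPM in controls (log2 −1.46, SE 0.20, adjusted p = 0.00041, edgeR). In the cluster of 2616 nuclei led by Slco1c1, the range was 2.94 to 19.2 CPM in mutants and 12.7 to 24.5 CPM in controls, which overlapped (log2 −1.17, SE 0.32, adjusted p = 0.042, edgeR). Leaving out each mouse in turn gave log2 values for all astrocytes from −1.54 to −1.26, with every adjusted p at or below 0.0039.

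Markers of fibroblasts and endothelial cells, which had more Alpl than astrocytes, were low in the astrocyte nuclei. The 8 fibroblast markers summed to 34.3 to 56.3 CPM in mutants and 52.1 to 69.8 CPM in controls, the 8 endothelial markers to 25.5 to 47.2 and 13.2 to 39.7 CPM and the 10 mural markers to 182 to 314 and 177 to 285 CPM, and none of these markers was at 0 in either genotype. At the ratio of Alpl to marker UMIs found in fibroblasts, the fibroblast markers would go with 0.747 CPM of Alpl in mutant and 1.54 CPM in control astrocytes, and the endothelial markers with 0.0967 and 0.107 CPM. The part of such nuclei or their RNA in the astrocyte difference was not tested.

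**Figure D2:**
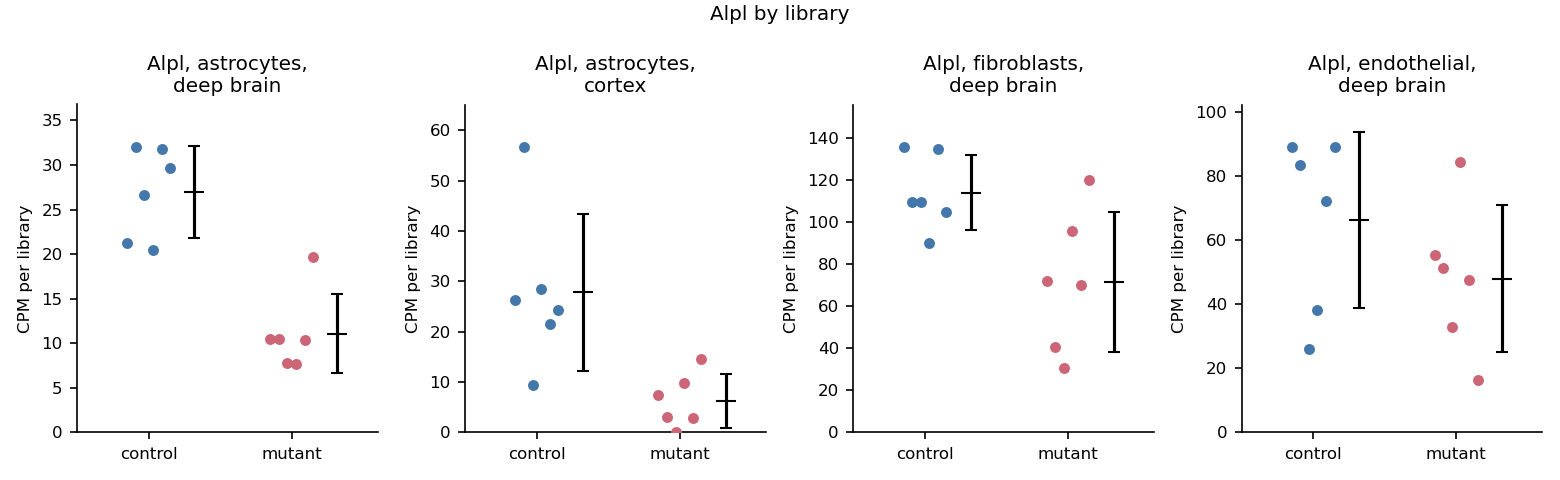
Alpl in CPM (vertical axis) in each library, with controls in blue and mutants in red, the mean as a horizontal line and the SD as a bar, for astrocytes of the deep brain and the cortex and for fibroblasts and endothelial cells of the deep brain. The 6 mutants lie below the 6 controls in deep brain astrocytes (7.73 to 19.7 against 20.4 to 32.0 CPM), while the genotypes overlap in the other panels.

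Over all deep brain nuclei Alpl fell by 0.67 on the log2 scale (SE 0.13, adjusted p = 0.026, edgeR), where 1.54% of 21040 genes passed the threshold. Astrocytes held 40.1% of the 1136 Alpl UMIs of controls and 28.7% of the 690 of mutants, fibroblasts 21.0% and 24.3%, and unnamed nuclei 14.3% and 18.7%. In the nuclei outside the astrocyte class, Alpl ranged from 0.947 to 1.46 CPM in mutants and from 1.19 to 1.83 CPM in controls, with means of 1.12 ± 0.19 and 1.49 ± 0.27 CPM (two-sided exact permutation test, p = 0.022, n = 6 and 6, not adjusted and added after the result was known). These nuclei include the unnamed clusters, and any astrocytes among those were not set apart. The call over all nuclei was lost without mutant 1, 2, 3 or 5 or control 5, at adjusted p from 0.055 to 0.073 (edgeR). In fibroblasts Alpl ranged from 30.7 to 120 CPM in mutants and from 89.9 to 136 CPM in controls, with a log2 difference of −0.69 (SE 0.23) that did not pass (adjusted p = 0.57, edgeR). In endothelial cells the ranges were 16.2 to 84.7 and 26.2 to 89.1 CPM, with too few UMIs for the filter on low counts. Without the filter Alpl could be tested in 7 further deep brain classes, where its log2 differences lay from −1.30 to −0.10 and none passed. In oligodendrocytes, with 42 UMIs in controls and 16 in mutants, the difference was −1.30 (SE 0.49, unadjusted p = 0.015, adjusted p = 0.27, edgeR), in Slc17a6 neurons −0.83 (SE 0.49, adjusted p = 0.84) and in endothelial cells −0.34 (SE 0.33, adjusted p = 0.73).

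The other members did not pass in the deep brain classes tested, which left out ependymal cells, committed oligodendrocyte precursors and macrophages. Of 84 tests of a member, over 11 classes or groups of nuclei, 2 passed, Alpl in astrocytes and in all nuclei. Among all genes 0.23% passed in neurons, 0.00649% in Slc17a7, 0% in Slc17a6 and 0.0234% in GABA neurons, 1.95% in oligodendrocytes, 0.0833% in OPC, 0.113% in microglia, 1.47% in endothelial cells and 0.0136% in fibroblasts. The 82 others had log2 differences from −0.69 (Alpl in fibroblasts) to 0.87 (Jam2 in Slc17a7 neurons) and adjusted p values of 0.13 or more (edgeR). Deep brain libraries held 157 to 2321 Slc17a7 neurons in mutants and 797 to 1677 in controls. The median UMIs per nucleus of this class ran from 2250 to 11876.5 in mutant libraries and from 3496 to 12619 in control libraries. Whether its make-up differed between mice was not tested. In astrocytes Ank, the pyrophosphate release gene, had 203 to 282 CPM in mutants and 173 to 226 CPM in controls (log2 0.26, SE 0.09, adjusted p = 0.13). Jam2 had 179 to 206 CPM in mutants and 150 to 190 CPM in controls there (log2 0.21, SE 0.08, adjusted p = 0.14). The ranges overlapped for both. In microglia the importers had log2 differences of 0.47 (SE 0.22, Slc20a1) and 0.46 (SE 0.16, Slc20a2) without passing (adjusted p = 0.87 and 0.72, edgeR). Ank differed there by −0.085 (SE 0.14, adjusted p = 0.99, edgeR). The study lists Ank among the markers of its calcification-associated microglia, which were not set apart from other microglia here. Slc20a2 in oligodendrocytes, its highest class, lay at 280 to 333 CPM in mutants and 296 to 337 CPM in controls.

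Mural cells, which include pericytes, were too few for the planned fit, with 4 to 12 nuclei in mutant and 16 to 34 in control libraries. A fit that accepted 4 nuclei per library, added later, kept 207 genes, none of them a member, so no member was tested there.

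**Figure D3:**
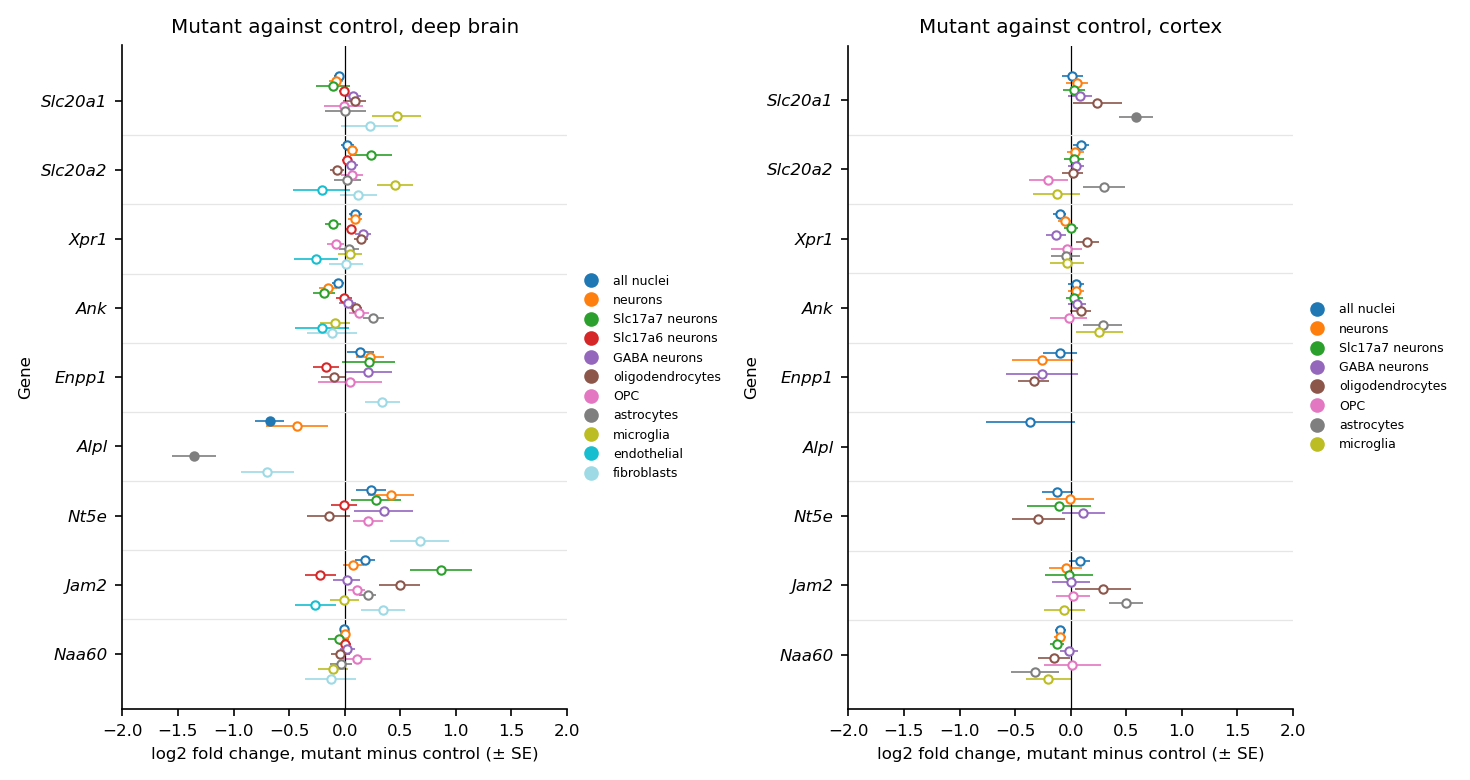
Log2 fold change of each of the 9 genes (rows), mutant minus control, with its SE as a bar, in each class tested in the deep brain (left) and the cortex (right), where filled points passed the adjusted threshold of 0.05 and open points did not. Alpl is filled in astrocytes (−1.35) and all nuclei (−0.67) of the deep brain, and Slc20a1 in cortical astrocytes (0.59).

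In the cortex, the region without calcified vessels, 1 of 56 member tests in 8 classes passed. Among all genes 0.275% passed over all nuclei, 0.98% in oligodendrocytes, 0.405% in microglia and 0% in OPC and in the neuron fits. The member that passed was Slc20a1, the PiT-1 importer, in astrocytes (2.07% of 6952 genes passed). Mutants 1 to 6 had 179, 193, 195, 208, 169 and 272 CPM and controls 1 to 6 had 119, 116, 104, 158, 159 and 149 CPM, without overlap. The rise was 0.59 on the log2 scale (SE 0.15, adjusted p = 0.046, edgeR, n = 6 and 6). It lies near the threshold. Leaving out 1 mouse lost the call in 10 of 12 cases (log2 0.45 to 0.65, adjusted p from 0.050 to 0.13 in those 10), and without the 7 shallow cortical libraries the difference was 0.64 with an adjusted p of 0.44. Cortical libraries held 27 to 470 astrocytes. In deep brain astrocytes Slc20a1 ranged from 94.4 to 195 CPM in mutants and from 87.1 to 164 CPM in controls (adjusted p = 1, edgeR). Jam2 in cortical astrocytes had 133 to 208 CPM in mutants and 103 to 153 CPM in controls, with some overlap, and did not pass (log2 0.50, SE 0.15, adjusted p = 0.11, edgeR).

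Alpl had too few UMIs in cortical astrocytes for the filter on low counts. Mutants 1 to 6 had 7.35, 3.02, 0.00, 9.74, 2.83 and 14.7 CPM and controls 1 to 6 had 26.4, 56.6, 9.46, 28.5, 21.6 and 24.4 CPM. Control 3, with 3 UMIs, was the control that reached into the mutant range, and mutant 6 was the highest mutant, as in the deep brain. Without the filter the log2 difference was −1.81 (SE 0.38, adjusted p = 0.00094, edgeR), in a fit where 1.4% of 20897 genes passed. Of the 15 cortical member tests that only this setting added, it was the 1 that passed.

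**Figure D4:**
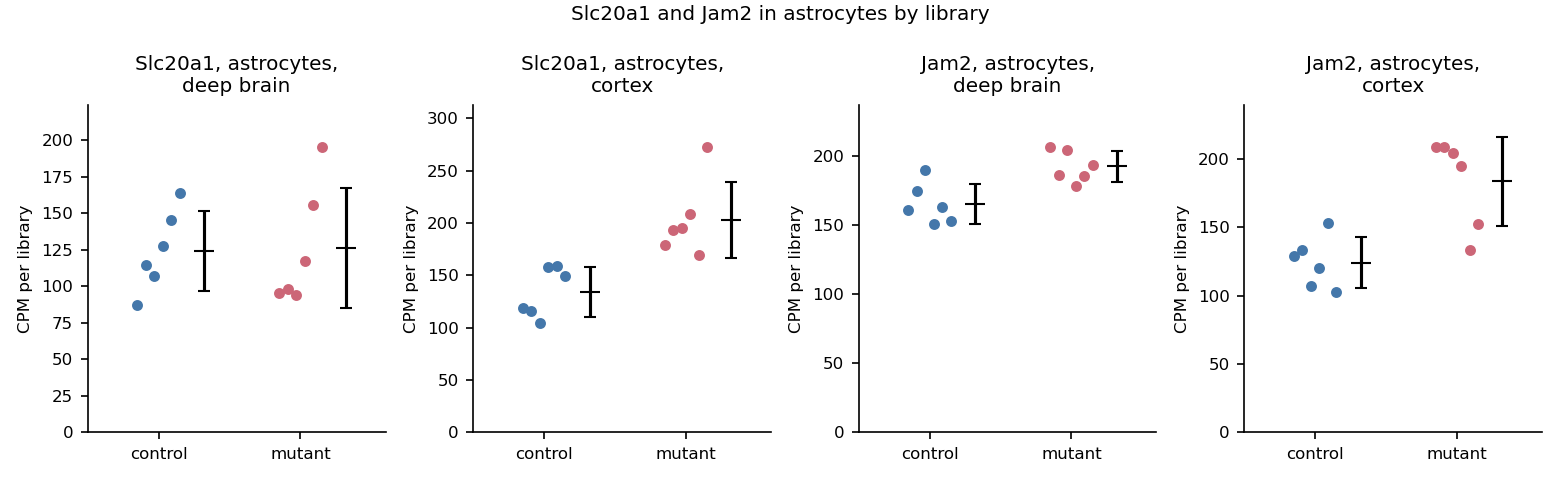
Slc20a1 and Jam2 in CPM (vertical axis) in the astrocytes of each library, with controls in blue and mutants in red, the mean as a horizontal line and the SD as a bar, for the deep brain and the cortex. Slc20a1 separates the genotypes in the cortex (169 to 272 against 104 to 159 CPM) and overlaps in the deep brain.

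Whether the genotype difference depends on the region was tested as an interaction within mice. None of 49 member tests in 6 classes passed (edgeR), while of all genes 0.0647% passed in neurons, 0.0293% in oligodendrocytes and 0% in the other fits. For Slc20a1 in astrocytes the deep brain difference was lower than the cortical one by 0.56 on the log2 scale (SE 0.16, unadjusted p = 0.0017, adjusted p = 0.34, edgeR), and for Alpl in astrocytes it was higher by 0.72 (SE 0.42, adjusted p = 0.85, edgeR).

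Of the other genes of phosphate and pyrophosphate handling, 3 of 18 tested in deep brain astrocytes passed, where 5.01% of all genes did. Over all deep brain classes 4 of 188 tests of the 28 listed genes passed. In astrocytes Entpd2, an ectoenzyme that takes ATP to ADP, fell from 110 ± 10 CPM in controls to 64.5 ± 14.9 CPM in mutants (log2 −0.79, SE 0.14, adjusted p = 0.0027, edgeR). Entpd1, which encodes CD39 and takes ATP on to AMP, rose from 60.1 ± 5.2 to 81.6 ± 12.8 CPM (log2 0.44, SE 0.11, adjusted p = 0.023). Ip6k3, an inositol hexakisphosphate kinase, fell at low levels, from 4.73 ± 1.56 to 1.96 ± 0.90 CPM (log2 −1.37, SE 0.31, adjusted p = 0.016). In oligodendrocytes Fgfr1, a receptor of fibroblast growth factors, rose from 13.3 ± 3.3 to 21.9 ± 2.8 CPM (log2 0.74, SE 0.14, adjusted p = 0.014). In the cortex 1 of 116 tests passed, Entpd2 in astrocytes again, which fell from 119 ± 33 to 49.1 ± 14.8 CPM (log2 −1.29, SE 0.21, adjusted p = 0.0022). None of the 30 deep brain or 15 cortical tests of the other brain calcification genes Pdgfb, Pdgfrb, Myorg and Cmpk2 passed. Counts at the 5′ end of Pdgfb do not check the ret allele.

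Within mice, deep brain and cortex differed in many members, as in many genes. Of 46 member tests in 6 classes 17 passed, 10 higher and 7 lower in the deep brain, while 8.24% (OPC) to 62.7% (neurons) of all genes passed in these fits. In astrocytes (22.2% of genes passed) the exporter Xpr1 was higher in the deep brain in 12 of 12 mice, with 375 ± 35 against 291 ± 39 CPM (log2 0.34, SE 0.06, adjusted p = 6.8e-05, edgeR). Ank was higher in 10 of 12 mice, with 218 ± 32 against 169 ± 47 CPM (log2 0.39, SE 0.09, adjusted p = 0.0018). Slc20a1 was lower in 10 of 12 mice, with 125 ± 33 against 168 ± 47 CPM (log2 −0.44, SE 0.10, adjusted p = 0.00086), and its ranges of 87.1 to 195 and 104 to 272 CPM overlapped. The means of Slc20a1 lay further apart in mutants (126 ± 41 against 203 ± 37 CPM) than in controls (124 ± 27 against 134 ± 24 CPM), a difference that did not pass as an interaction (adjusted p = 0.34, edgeR). This call was lost without the shallow cortical libraries (log2 −0.19, adjusted p = 0.23).

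In OPC (8.24% of genes passed) Nt5e was higher in the deep brain in 12 of 12 mice, at 35.5 ± 5.8 against 21.9 ± 8.2 CPM (log2 0.72, SE 0.16, adjusted p = 0.0016, edgeR). Its call was lost under 1 other setting (log2 0.65) and kept under 6 and without control 6. Alpl in OPC, tested only without the filter on low counts (4.6% of genes passed), was lower in the deep brain in 10 of 12 mice (7.72 ± 1.95 against 13.4 ± 6.7 CPM, log2 −0.77, SE 0.25, adjusted p = 0.044, edgeR). In oligodendrocytes (19.7% of genes passed) the differences were small, −0.16 for Xpr1 (SE 0.05, adjusted p = 0.027) and 0.18 for Enpp1 (SE 0.06, adjusted p = 0.046). With all mice, each call was lost under 3 other settings and kept under 5. Without control 6 the Xpr1 call was lost (adjusted p = 0.063, edgeR) and the Enpp1 call was kept (adjusted p = 0.038, edgeR). In microglia (9.62% of genes passed) no member passed.

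The regional differences of Slc20a1 and Jam2 over all neurons, where 62.7% of genes passed, turned in GABA neurons, a comparison added after the results were seen. In the fits of 1 neuron type 26.0% of genes passed in Slc17a7 and 40.4% in GABA neurons. All neurons of the deep brain also held Slc17a6 neurons, for which the cortex gave no class. These had 26.6 ± 4.8 CPM of Jam2, 65.9 ± 2.3 of Slc20a1, 151 ± 9 of Ank and 2.80 ± 0.34 of Enpp1. The part of this mix in the differences over all neurons was not tested. Slc20a1 was lower in deep brain neurons (64.1 ± 3.9 against 73.6 ± 9.4 CPM, log2 −0.33, SE 0.04, adjusted p = 1.5e-06, edgeR), and in Slc17a7 neurons it was also lower (log2 −0.26, SE 0.06, adjusted p = 0.011), but in GABA neurons it was higher (57.0 ± 4.8 against 44.7 ± 5.8 CPM, log2 0.23, SE 0.04, adjusted p = 0.00095, 12 of 12 mice). Jam2 was higher in deep brain neurons (15.2 ± 1.7 against 7.87 ± 1.55 CPM, log2 0.80, SE 0.09, adjusted p = 3.2e-06, 12 of 12 mice), yet lower in GABA neurons (9.21 ± 1.4 against 14.2 ± 3.5 CPM, log2 −0.73, SE 0.10, adjusted p = 4.1e-05) and without a call in Slc17a7 neurons (log2 0.21, adjusted p = 0.47). Slc20a2 was lower by 0.15 in all neurons (SE 0.04, adjusted p = 0.0030), at 68.3 ± 5.6 against 68.6 ± 4.5 CPM before the scaling factors of edgeR, and with library size alone as the scaling the difference was −0.0078 (adjusted p = 0.88). In Slc17a7 neurons it was 0.099 (adjusted p = 0.43) and in GABA neurons −0.12 (SE 0.04, adjusted p = 0.047), at 66.9 ± 3.6 against 66.4 ± 5.8 CPM and higher in the deep brain in 6 of 12 mice. With library size alone that GABA value was 0.015 (adjusted p = 0.82). The Slc17a7 class of the deep brain varied in nuclei and depth between libraries, as given above. The part of this in its regional values was not tested.

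Ank, by contrast, was lower in deep brain neurons of every kind compared, by 0.61 in all neurons (SE 0.04, adjusted p = 1.4e-08, 12 of 12 mice), 0.22 in Slc17a7 neurons (SE 0.05, adjusted p = 0.0091) and 0.43 in GABA neurons (SE 0.04, adjusted p = 3.5e-06). Its levels in all neurons, 168 ± 15 and 234 ± 17 CPM, did not overlap between regions. Enpp1 was higher in all deep brain neurons at low levels (3.07 ± 0.47 against 1.45 ± 0.59 CPM, log2 0.99, SE 0.16, adjusted p = 6.0e-05) and in Slc17a7 neurons (log2 0.79, SE 0.19, adjusted p = 0.011), and did not pass in GABA neurons (log2 0.39, SE 0.24, adjusted p = 0.21). Nt5e passed in GABA neurons alone among these 3 fits, where it was lower in the deep brain (11.6 ± 3.7 against 17.0 ± 4.5 CPM, log2 −0.73, SE 0.20, adjusted p = 0.0097), although a difference between the neuron types was not tested. Leaving out the shallow cortical libraries kept only 3 control and 2 mutant mice in the fits of 1 neuron type. Without the shallow cortical libraries 0.343% of genes passed in Slc17a7 neurons, and the calls of Slc20a1, Ank and Enpp1 there were lost (adjusted p from 0.27 to 0.35, edgeR), as were those of Nt5e (0.17) and Slc20a2 (0.059) in GABA neurons, where 20.6% passed. Naa60 was higher in all neurons by 0.08 (SE 0.03, adjusted p = 0.034), a call lost without control 6 (adjusted p = 0.083). Among the other settings and single neuron types, the Naa60 call was also lost in 4 (log2 0.052 to 0.11) and kept in 6.

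Over all nuclei (59.3% of genes passed) Enpp1 (log2 0.72, SE 0.07), Jam2 (0.44, SE 0.05) and Slc20a2 (0.16, SE 0.04) were higher in the deep brain in 12 of 12 mice, and Slc20a1 (−0.38, SE 0.04) and Ank (−0.38, SE 0.03) were lower in 12 of 12, with adjusted p values from 2.3e-07 to 0.0042 (edgeR). Oligodendrocytes made up 24.3% of the deep brain nuclei and 8.71% of the cortical ones, and the part of this share in these differences was not tested. Scaling by library size alone moved the median of all genes by 0.12 in all nuclei and 0.14 in neurons on the log2 scale, so the smallest of these differences are relative to the scaling. With all mice, the Slc20a2 call over all nuclei was lost under 2 other settings (log2 0.087 to 0.12) and kept under 7. In the 6 regional fits 8.24% (OPC) to 62.7% (neurons) of all genes passed, over all nuclei 6360 higher and 5923 lower in the deep brain. Over all nuclei 14 of 27 of the pathway genes tested passed, and in neurons 12 of 24. Of the 107 tests of the other 28 pathway genes 36 passed, 28 higher and 8 lower in the deep brain, and of the 13 tests of the 4 other calcification genes 9 passed. Among them Slc29a1, an adenosine transporter, was higher in deep brain astrocytes (19.3 ± 5.3 against 5.54 ± 1.93 CPM, log2 1.84, SE 0.20, adjusted p = 2.4e-08, edgeR), and Pdgfb was lower in deep brain neurons (5.05 ± 1.79 against 10.8 ± 2.1 CPM, log2 −1.28, SE 0.12, adjusted p = 3.6e-07, edgeR).

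**Figure D5:**
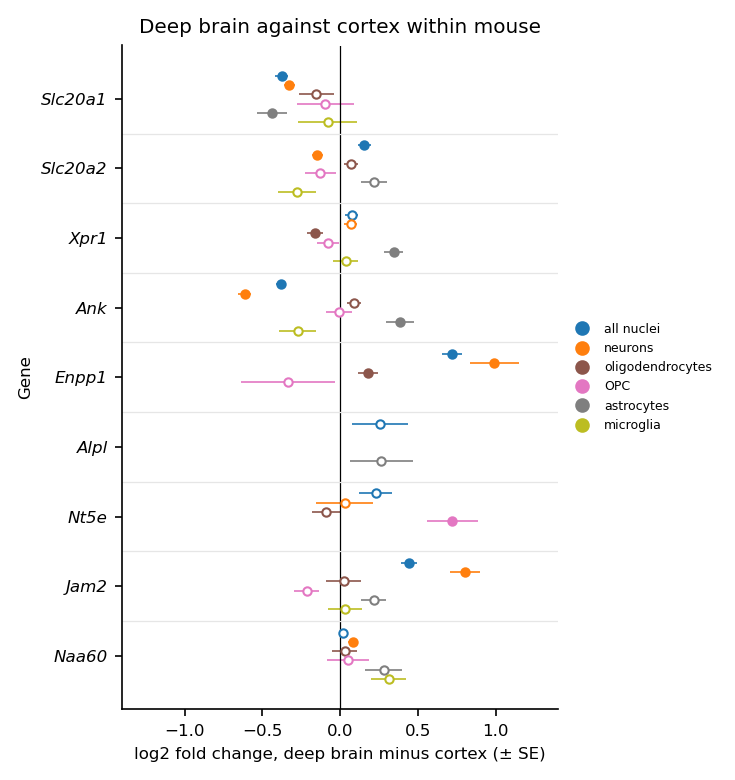
Log2 fold change of each of the 9 genes (rows), deep brain minus cortex within mouse, with its SE as a bar, in 6 classes, where filled points passed the adjusted threshold of 0.05 and open points did not. Ank is lower in deep brain neurons (−0.61) and higher in deep brain astrocytes (0.39), and Slc20a1 is lower in both (−0.33 and −0.44).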

How the data were processed

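Nuclear RNA of 24 libraries was sequenced with the 10x Genomics 5′ kit. The authors made UMI counts with Cell Ranger 5.0.1 (bcl2fastq 2.20.0.422, mm10, introns included) and deposited them without normalization. Members and gene lists were chosen with earlier results of these data known. All members are named. Of the other listed genes, those past the threshold could be named, at most 4 per class, and for likeness the nearest of up to 3 genes.

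Nuclei with over 500 and under 7000 genes and under 20% mitochondrial UMIs were kept, as in the study, and doublets were not removed. Counts scaled to 1000 per nucleus gave 2000 variable genes, from which the members and listed genes were left out, and 20 components (scanpy 1.11.5, Python 3.11.15). Clusters (Seurat 5.3.0, 20 neighbours, resolutions 0.01, 0.1 and 0.5 in turn) were named from marker lists. Raw counts were summed per library and class, with at least 10 nuclei, in at least 4 libraries per genotype. Only the classes planned beforehand were fitted. Deep brain ependymal cells, committed oligodendrocyte precursors and macrophages met these limits but were not among them. Low counts were filtered by edgeR 4.0.16 (R 4.3.3), which also gave the TMM factors and the quasi-likelihood test, checked on simulated counts. CPM are per all UMIs of the nuclei summed. Region was tested with the mouse as a block, since both regions come from 1 animal (correlation of a mouse's deviations −0.014 to 0.39, over 0.1 in 9 of 12).

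Alternatives were RLE factors, library size alone, no filter, DESeq2 1.42.0, under 5% mitochondrial UMIs, 1 clustering at resolution 0.5, removal of doublets called by Scrublet, a block for replicate number or age, no shallow cortical libraries, and leaving out mice.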

Additional observations from a re-analysis of the deposited data

Results flagged for a closer look

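Only members in classes where they had been called in a comparison were examined, in both regions and genotypes. In these 76 groups of 6 libraries the gap between the highest or lowest library and the rest was compared with Dixon's 95% limit for the share of the group's range, which chance passes in about 1 in 20 groups. It was passed in 6 groups. In deep brain astrocytes mutant 6 had 19.7 CPM of Alpl (38 UMIs in 659 nuclei) against 7.73 to 10.5 CPM in the other mutants, a gap of 0.771 of the range, and over all deep brain nuclei it had 2.02 against 1.29 to 1.49 CPM (0.733). Without mutant 6 the log2 difference in astrocytes stayed between −1.54 and −1.26, the limits over all single mice left out.

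Over all cortical nuclei mutant 2 had 3.36 CPM of Alpl against 0.524 to 1.41 CPM (0.688), and 49 of its 75 Alpl UMIs lay in 2 nuclei of the fibroblast class. Over the same nuclei mutant 3 had 9.06 CPM of Enpp1 against 4.67 to 5.51 CPM (0.807), with 69 of 147 UMIs in oligodendrocytes. Control 5 had 3.75 CPM of Enpp1 in deep brain neurons against 2.39 to 2.80 CPM (0.698). Control 6, the male, had the lowest Slc20a1 over all deep brain nuclei, 57.4 against 60.2 to 62.0 CPM (0.6253). The causes were not tested.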

How the results depend on the processing

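The fall of Alpl in deep brain astrocytes kept its direction and its call under 9 other settings (log2 −1.36 to −1.33) and without each mouse. Of the 84 deep brain tests 2 passed under every full setting, the replicate block included. Control 6 was left out in every class, but the other mice only in fits where a member had passed. These were all nuclei and astrocytes in the deep brain and astrocytes in the cortex. In the deep brain tests run without each mouse 1 to 2 passed. In the cortex 1 of 56 passed, 1 with the replicate block and 0 without the shallow libraries. In the cortical tests run without each mouse, of astrocytes alone except for control 6, 0 to 2 passed. Without the filter on low counts, which added 15 tests, 2 passed, the second being Alpl in astrocytes, which is not among the 56. Between regions 17 passed, 15 with no replicate block (the mouse), 15 to 23 under the other scalings and filters, and 11 without the shallow libraries. Regional differences over all neurons turned in GABA neurons alone for Slc20a1 (0.23) and Jam2 (−0.73). For Slc20a2 the value in Slc17a7 neurons was 0.099 and did not pass (adjusted p = 0.43, edgeR). With library size alone and the other settings no interaction was called. Among the 11 deep brain classes with at least 10 nuclei in all 12 libraries, the class with the highest level stayed the same for all 9 members under 3 other settings and for 6 with 1 clustering at 0.5. That clustering left 8 such classes, without fibroblasts, the leading class of Enpp1, Alpl and Nt5e among the 11.

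The count of all genes called moved more. Over all deep brain nuclei it was 324, 960 with DESeq2, 507 with the replicate block and 92 without control 5. Over all cortical nuclei it was 50, 270 with DESeq2, 418 with the replicate block, 241 with an age block, 77 without the filter and 1 without the shallow libraries. In cortical astrocytes it was 144, 293 without the filter, 251 with the replicate block and 21 without the shallow libraries, and in deep brain astrocytes 640, with 352 to 1058 without each mouse. The deviations of mice with the same number correlated above 0.1 in 6 of 6 pairs over all cortical nuclei (0.24 to 0.83), in 4 of 6 over all deep brain nuclei (median 0.21), in 3 of 6 in deep brain and in 2 of 6 in cortical astrocytes. Mice numbered 1 to 4 had the same age to the day in both genotypes, as had mutant 5 and control 6, and mutant 6 and control 5. The labels state no shared litter or day.

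Depth limits Alpl most, with 15 to 125 UMIs in a cortical library. Scrublet called up to 46.8% of the nuclei of a cortical library, so its calls were used only in the deep brain, for the genotype test and the levels, and 3 planned settings were not run. Mural cells of mutants were too few for the planned fit. In the cortex 55.2% of nuclei stayed unnamed. P values measure the spread over mice.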
